A study of Mus musculus with 4 samples.

Results

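The liver-type genes described here for the most part encode plasma proteins and enzymes that are made mainly by hepatocytes. Their transcripts were measured in mouse hippocampus. The genes are a list of 32, chosen with results of the comparison of R-SDS and Control mice known, so their differences between these groups are given as a description, without a test. A gene was taken as measured where an array row carried its symbol and no other, and the row with the highest mean over the 4 arrays represented it. By this rule 29 of the 32 genes were measured, among 19938 genes in all. Serpina3k, Mup20 and Gc had no row of their own and were not analysed here.

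Hepatocytes secrete most proteins of blood plasma: albumin, the apolipoproteins of lipoprotein particles, the chains of fibrinogen, inhibitors of proteases and, in the mouse, the major urinary proteins that carry pheromones. Transcription of these genes in liver depends on a small group of transcription factors, among them HNF1, HNF4 and C/EBP proteins, which bind close to the start of the genes. Adult hippocampus is built of neurons, glia and vessels, none of which is known as a main source of plasma proteins.

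All 4 arrays came from male C57BL/6JJmsSlc mice of 11 to 12 weeks, with 1 array for each sample of hippocampal RNA. R-SDS mice (2 arrays) were stressed by repeated social defeat, 10 min of daily contact with an aggressive ICR male over 10 days and housing beside it behind a board for the rest of each day. Control mice (2 arrays) lived in pairs in divided cages, without defeat and without an ICR male as neighbour. The study describes its R-SDS mice as susceptible in a social interaction test, whereas its labels name the stress alone and do not say what a shared replicate number, 1 or 2, means.

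The promoters of 5 of the genes are shown because they include the genes with the largest lower values and a close relative that differed little, and because they share the hexamer GTTAAT, part of the sites that HNF1 binds. Each line gives the 150 bases before the start of the gene, 5′ to 3′ on the strand of the gene, from RefSeq on GRCm38.p6. Capitals mark matches to GTTAAT and to TTNNGCAA, a loose form of the C/EBP site, on either strand.
Alb (chr5:90460720-90460869, plus strand): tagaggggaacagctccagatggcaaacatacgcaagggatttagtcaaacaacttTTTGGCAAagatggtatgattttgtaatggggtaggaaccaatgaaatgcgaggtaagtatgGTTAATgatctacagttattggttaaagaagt
Serpina1c (chr12:103904951-103905100, minus strand): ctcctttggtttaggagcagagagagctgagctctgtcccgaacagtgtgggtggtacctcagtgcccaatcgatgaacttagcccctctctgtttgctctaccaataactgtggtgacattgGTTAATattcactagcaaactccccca
Serpina1d (chr12:103773634-103773783, minus strand): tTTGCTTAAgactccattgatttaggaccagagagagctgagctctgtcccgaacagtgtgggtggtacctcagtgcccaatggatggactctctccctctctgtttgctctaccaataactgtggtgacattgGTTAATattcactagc
Pzp (chr6:128526721-128526870, minus strand): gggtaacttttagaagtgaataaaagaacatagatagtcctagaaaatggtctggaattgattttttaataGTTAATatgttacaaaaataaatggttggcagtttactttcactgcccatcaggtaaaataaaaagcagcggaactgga
Fabp1 (chr6:71199729-71199878, plus strand): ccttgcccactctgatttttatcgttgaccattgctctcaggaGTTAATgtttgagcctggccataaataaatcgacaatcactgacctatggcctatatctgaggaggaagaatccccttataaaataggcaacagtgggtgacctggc

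The search covered windows of 300 bases, 250 before to 50 after the start, on both strands, and 23 of the 29 genes had such a window. GTTAAT stood in 7 of the 23 (30.43%) and in 7.11% of the windows of 15614 genes. Those 7 were Alb, Serpina1c, Serpina1d, Pzp, Fabp1, Fgb and Fga. TTNNGCAA stood in 10 of the 23 (43.48%) and in 11.26% of all windows, and 5 genes (Alb, Fabp1, Fga, Fgb and Serpina1d) held both. TATAAA was found in 6 of the 23 (26.09%) and in 13.6% of all windows, and CAAAGTCCA, bound by HNF4, in 1 (Cyp3a11, 4.35%) and in 0.56%. The full HNF1 palindrome (0.01% of all windows), which contains GTTAAT, and the C/EBP palindrome TTGCGCAA (0.26%), which is a form of TTNNGCAA, were in 0 of the 23. The 7 genes with GTTAAT had a median log2 difference of -0.49, and the 16 without it -0.12. For TTNNGCAA the medians were -0.23 with and -0.13 without, and for TATAAA -0.36 with and -0.12 without. These splits were not tested, and the list was chosen on the same differences. A match describes letters and is not a measured binding site.

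The R-SDS arrays gave lower values for a large share of these genes. Of the 29, 24 had a lower mean in R-SDS mice (46.5% of all genes did), and the median log2 difference, R-SDS minus Control, was -0.23 against 0.01 over all genes. For 15 genes both R-SDS values lay below both Control values, as they did for 8.81% of all genes. For 1 gene, Ambp, both lay above (9.52% of all genes), and for 13 the groups overlapped. In 12 of the 15 the difference between the group means was also larger than the gap between the arrays within each group. Both held for 5.5% of all genes. Nothing is read from these counts, since the list was chosen on this contrast. In bulk tissue, fewer cells of a type and less RNA per cell cannot be told apart.

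**Figure D1:**
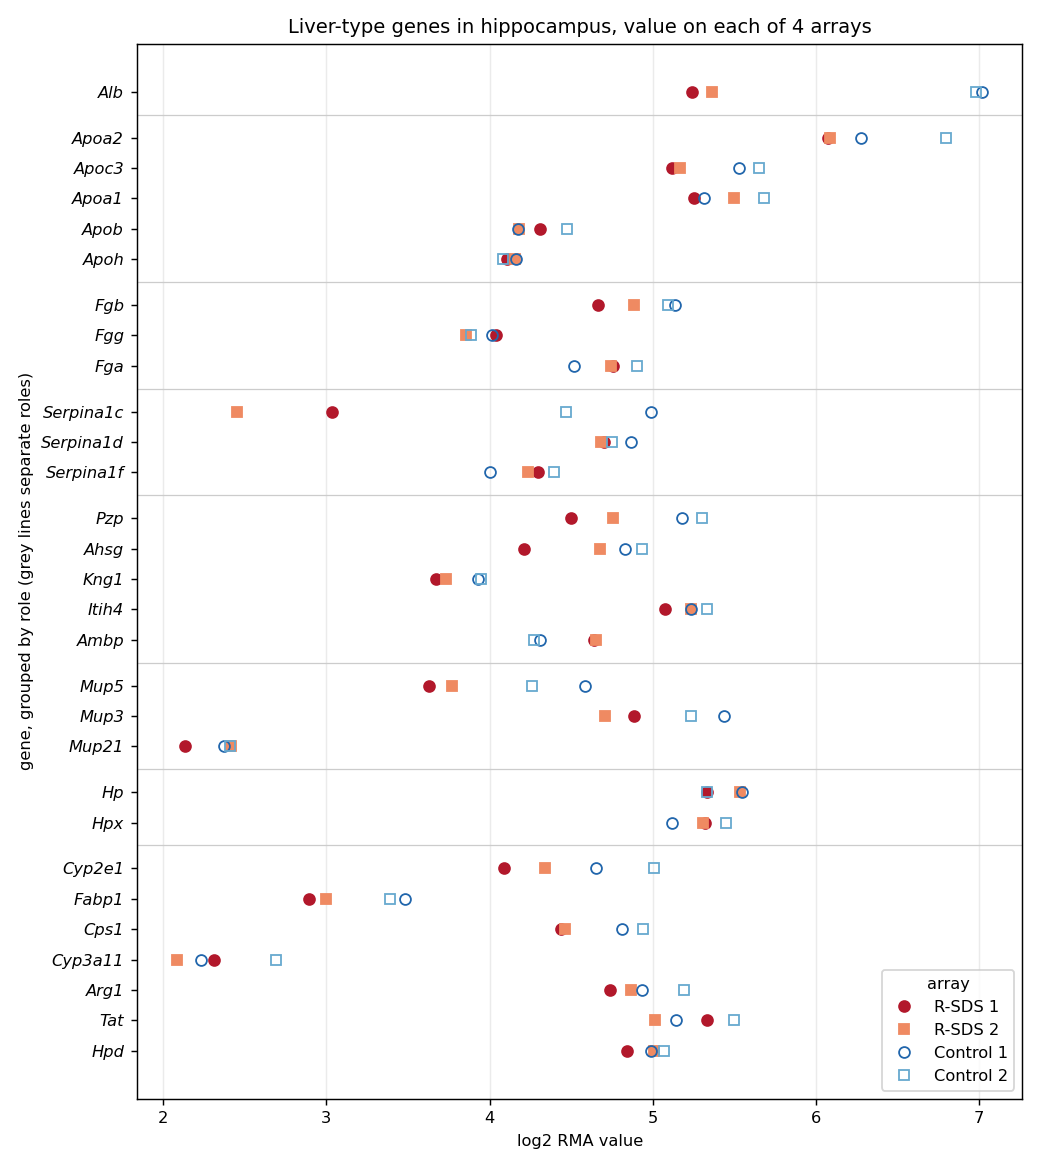
Log2 RMA value (horizontal axis) of the 29 genes (vertical axis, grouped by role) on each array, with filled symbols for R-SDS and open symbols for Control, circles for number 1 and squares for number 2. The R-SDS symbols of Alb (5.24 and 5.36) and Serpina1c (3.03 and 2.45) stand well left of the Control symbols, while those of Fgg, Apoh and Hp are mixed with them.

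Alb encodes serum albumin, the main carrier and osmotic protein of plasma. It measured 5.24 and 5.36 in R-SDS 1 and R-SDS 2, against 7.02 and 6.98 in Control 1 and Control 2, on the log2 scale. The groups were far apart and each was tight, with means of 5.30 ± 0.09 in R-SDS mice and 7.0 ± 0.03 in Control mice (SD, n = 2 each). The log2 difference was -1.70 (SE 0.13, limma's moderated error), a 3.25-fold lower signal in R-SDS mice. Among all genes of the same array, Alb stood at percentiles 30.2 and 30.5 in R-SDS mice and at 57.6 and 58.6 in Control mice. Leaving out any single array kept the difference between -1.76 and -1.64.

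The alpha-1-antitrypsin genes, which encode plasma inhibitors of neutrophil elastase and related proteases, differed in size among themselves. Serpina1c measured 3.03 and 2.45 in R-SDS 1 and R-SDS 2, against 4.99 and 4.47 in Control 1 and Control 2. Its log2 difference of -1.99 (SE 0.26) was the lowest of all 19938 genes, with Alb next. That rank holds for the values as deposited. With values below log2 5 raised to that floor, the differences of Serpina1c and Mup5 became 0 while that of Alb stayed at -1.70, and a filter on dim rows removed both genes and kept Alb. In R-SDS mice Serpina1c was close to the bottom of the scale, at percentiles 4.9 and 1.5, against 27.2 and 16.2 in Control mice. Serpina1d measured 4.70 and 4.68 in R-SDS mice and 4.86 and 4.75 in Control mice, with a difference of -0.11 (SE 0.13). Its groups stood side by side without overlap, yet the difference was smaller than its error. Serpina1f, a further gene of the same cluster, measured 4.29 and 4.24 in R-SDS mice and 4.0 and 4.40 in Control mice, so that the groups overlapped (difference 0.07, SE 0.17; -0.13 without Control 1).

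Some rows of the array are annotated to several Serpina1 genes at once and do not tell them apart. The brighter of the 2 rows naming Serpina1a to Serpina1e measured 5.98 and 6.41 in R-SDS 1 and R-SDS 2, against 7.09 and 7.72 in Control 1 and Control 2 (difference -1.21). The dimmer one measured 3.68 and 3.94 in R-SDS mice and 4.61 and 4.80 in Control mice (difference -0.89). Both rows were thus lower in both R-SDS mice, by amounts between those of Serpina1c and Serpina1d. In sequence, the 300-base promoter of Serpina1c was 93.0% identical to that of Serpina1a, 92.0% to Serpina1b, 88.3% to Serpina1d, 79.0% to Serpina1e and 52.0% to Serpina1f. The promoters of Serpina1c and Serpina1d shared an unbroken run of 55 bases, which holds the GTTAAT printed in capitals above.

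The major urinary proteins are small carriers of volatile pheromones, and mouse liver secretes many of them for excretion in urine. Mup5 measured 3.63 and 3.77 in R-SDS 1 and R-SDS 2, against 4.58 and 4.26 in Control 1 and Control 2 (difference -0.72, SE 0.16). Mup3 measured 4.89 and 4.71 in R-SDS mice and 5.44 and 5.24 in Control mice (difference -0.54, SE 0.15). Both genes kept the R-SDS arrays below the Control arrays. Mup21 measured 2.14 and 2.41 in R-SDS mice and 2.37 and 2.41 in Control mice, all near the bottom of the scale (difference -0.12, SE 0.15; 0.02 without R-SDS 1). The promoters of Mup3 and Mup21 were 92.0% identical. A further 7 rows named several Mup genes or pseudogenes, and in all 7 the R-SDS arrays lay below the Control arrays, with differences of -0.53 to -0.15. Among genes with a row of their own 8.81% did so, and no share was counted over rows of several genes. All values of the 7 rows were low on the scale, from 1.695 to 3.694. A pair of these rows held identical values, so that 6 were distinct, and rows of near-identical genes can share signal.

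**Figure D2:**
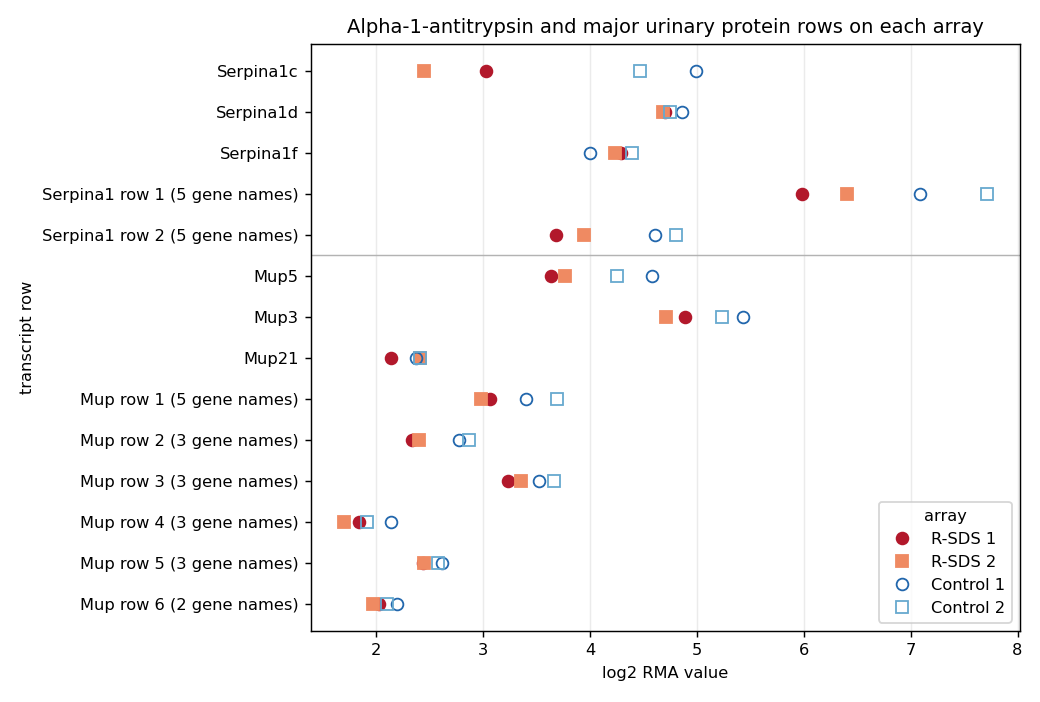
Log2 RMA value (horizontal axis) on each array of the rows for alpha-1-antitrypsin genes (upper block) and major urinary protein genes (lower block), with filled symbols for R-SDS and open symbols for Control. Rows annotated to several genes are numbered, and both such Serpina1 rows lie lower in R-SDS mice (5.98 and 6.41 against 7.09 and 7.72 for row 1).

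Of 5 further genes for inhibitors and related proteins of plasma, 3 had R-SDS arrays below the Control arrays (8.81% of all genes), 1 overlapped and 1 lay above (9.52%). Pzp, an alpha-2-macroglobulin-type trap for proteases, measured 4.5 and 4.75 in R-SDS 1 and R-SDS 2, against 5.18 and 5.30 in Control 1 and Control 2 (difference -0.61, SE 0.15). Ahsg, or fetuin-A, which binds calcium phosphate in plasma, measured 4.21 and 4.67 in R-SDS mice and 4.83 and 4.93 in Control mice (difference -0.44, SE 0.19). R-SDS 1 carried much of that difference, which was -0.21 without it and -0.67 without R-SDS 2. Kng1, the kininogen that releases bradykinin, measured 3.67 and 3.74 in R-SDS mice and 3.93 and 3.95 in Control mice (difference -0.23, SE 0.13). Itih4, an inter-alpha-trypsin inhibitor heavy chain, overlapped between the groups (difference -0.13, SE 0.14). Ambp, the precursor of alpha-1-microglobulin and bikunin, was the gene that went the other way. It measured 4.64 and 4.65 in R-SDS mice and 4.31 and 4.27 in Control mice, a difference of 0.35 (SE 0.13) that stayed between 0.34 and 0.37 without any single array. With values below log2 5 raised to that floor, the differences of Ambp, Ahsg and Kng1 became 0. That of Pzp became -0.24, and that of Itih4 stayed at -0.13.

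The fibrinogen chains are encoded by 3 adjacent genes whose products join in equal numbers in the clotting protein. Fgb, the beta chain, measured 4.66 and 4.88 in R-SDS 1 and R-SDS 2, against 5.14 and 5.09 in Control 1 and Control 2 (difference -0.34, SE 0.14). Fga, the alpha chain, measured 4.76 and 4.75 in R-SDS mice and 4.52 and 4.90 in Control mice (difference 0.04, SE 0.17). Fgg, the gamma chain, measured 4.04 and 3.86 in R-SDS mice and 4.01 and 3.89 in Control mice, a difference of 0.00 (SE 0.14). Only the beta chain among these genes had arrays of the groups that did not overlap, and whether it differed more than the other chains was not tested. A second row for Fga gave -0.03. The difference of Fga was -0.15 without Control 1.

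Apolipoproteins carry lipids in plasma, and in 2 of the 5 measured genes the R-SDS arrays lay below the Control arrays (8.81% of all genes). Apoa2, of high-density lipoprotein, measured 6.08 and 6.09 in R-SDS 1 and R-SDS 2, against 6.27 and 6.80 in Control 1 and Control 2 (difference -0.45, SE 0.20). Its size rested on Control 2, since the difference was -0.19 without that array and -0.72 without Control 1. Apoc3, an inhibitor of lipoprotein lipase, measured 5.12 and 5.17 in R-SDS mice and 5.53 and 5.65 in Control mice (difference -0.45, SE 0.13). Apoa1, which lies next to Apoc3 and forms the core of high-density lipoprotein, overlapped between the groups (difference -0.12, SE 0.18; 0.06 without Control 2). Apob, of low-density lipoprotein, and Apoh, which binds anionic phospholipids, overlapped too, with differences of -0.08 (SE 0.16) and 0.01 (SE 0.13).

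The scavengers of haemoglobin and haem showed hardly any difference. Hp, which encodes haptoglobin, had a difference of 0.00 (SE 0.15), and Hpx, which encodes hemopexin, one of 0.03 (SE 0.16), with overlapping arrays in both cases. Both are acute-phase genes in liver.

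Of the 7 measured genes for intracellular proteins of the hepatocyte, 7 had a lower mean in R-SDS mice (46.5% of all genes), and in 4 the R-SDS arrays lay below the Control arrays (8.81% of all genes). Cyp2e1, a cytochrome P450 that oxidises ethanol, measured 4.09 and 4.34 in R-SDS 1 and R-SDS 2, against 4.65 and 5.01 in Control 1 and Control 2 (difference -0.62, SE 0.18). Fabp1, the liver carrier of fatty acids, measured 2.89 and 3.0 in R-SDS mice and 3.48 and 3.39 in Control mice (difference -0.49, SE 0.13). Cps1, which starts the urea cycle, measured 4.44 and 4.46 in R-SDS mice and 4.81 and 4.94 in Control mice (difference -0.43, SE 0.13). Arg1, which ends that cycle, measured 4.74 and 4.86 in R-SDS mice and 4.93 and 5.19 in Control mice (difference -0.26, SE 0.15). Arg1 is also expressed by some macrophages. With values below log2 5 raised to that floor, the differences of Fabp1 and Cps1 became 0, that of Cyp2e1 -0.0045 and that of Arg1 -0.10. Cyp3a11 overlapped between the groups near the bottom of the scale (difference -0.26, SE 0.19; -0.04 without Control 2). The tyrosine-degrading enzymes Tat (difference -0.15, SE 0.19; 0.03 without Control 2 and 0.01 without R-SDS 2) and Hpd (difference -0.10, SE 0.14) overlapped as well.

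The study took genes past a log2 difference of 0.5 whose unadjusted p was under 0.05. By these thresholds, with the p from limma, 6 of the 29 genes were lower (Serpina1c, Alb, Mup5, Cyp2e1, Pzp and Mup3) and 0 higher. Over all genes 0.196% were lower by these thresholds. With Benjamini-Hochberg adjustment over the 21789 tested rows, limma called 0 lower and 0 higher, so 0 of the 29 genes passed. At an unadjusted p under 0.05 limma counted 221 rows (1.01%), and the methods' t-test 440, with 0 after adjustment. Without R-SDS 1 Serpina1c passed the adjusted p, and without R-SDS 2 Alb and Serpina1c did, in fits where the remaining R-SDS array is assumed to vary like the Control arrays. Leaving out an array leaves 1 array in a group, so counts of the 29 genes by the study's thresholds are not given for such fits.

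Array distributions differed by replicate number. Over all rows, number 1 had interquartile ranges of 3.37 (R-SDS 1) and 3.34 (Control 1), and number 2 had 3.11 (R-SDS 2) and 3.06 (Control 2). Array pairs correlated at 0.9883 to 0.9962 (Pearson, across rows, which are not replicates). The highest values were those of R-SDS 2 with Control 2 (0.9962) and R-SDS 1 with Control 1 (0.9941). The pairs within a group gave 0.99 (R-SDS) and 0.9922 (Control). Differences were therefore also taken within each number. Camk2a, a kinase of forebrain neurons, measured 12.76 and 12.68 in R-SDS mice and 12.71 and 12.69 in Control mice. Of 15 measured markers of hippocampal neurons, 3 had a lower mean in R-SDS mice (46.5% of all genes) and 12 a higher one. The median difference of these markers was 0.08. Hepatocyte-defining genes of the list (Alb, Apoa1, Fga, Fgb, Fgg, Serpina1c, Cps1, Cyp2e1 and Fabp1) and Hnf4a stood at percentiles 5.22 to 44.4 of mean signal, with no detection call to tell expression from background.

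Within replicate number 1 (R-SDS 1 minus Control 1) the median log2 difference of the 29 genes was -0.20, and within number 2 it was -0.26. In total 18 genes were lower in the R-SDS array within both numbers, as were 22.3% of all genes, and Ambp was the 1 gene higher in both (0.33 and 0.38). For Alb the differences were -1.78 within number 1 and -1.62 within number 2. Serpina1c differed by -1.96 and -2.02. These were close to equal across the numbers, as were the differences of Mup3 (-0.55 and -0.53). Mup5 had -0.95 in number 1 and -0.49 in number 2, and Apoa2 had -0.20 and -0.71. Beyond -0.5 lay 8 genes within number 1 (1.05% of all genes) and 7 within number 2 (0.988%). Of these, 5 lay beyond it in both (Serpina1c, Alb, Cyp2e1, Pzp and Mup3), among 17 such genes of 19938 (0.0853%).

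**Figure D3:**
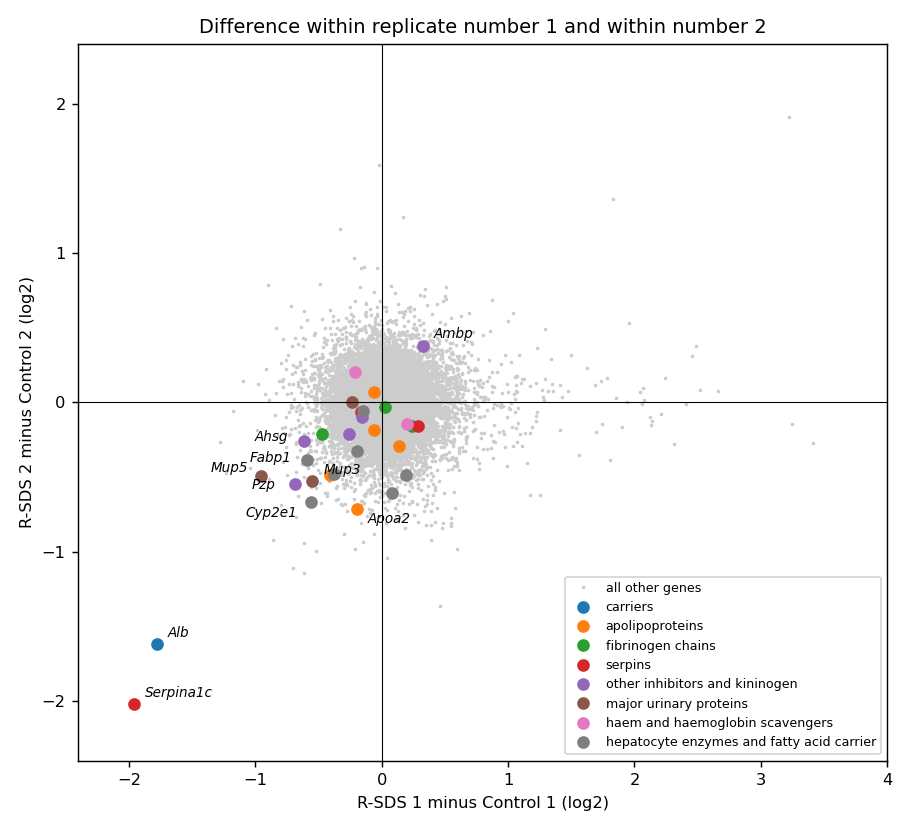
Log2 difference R-SDS 1 minus Control 1 (horizontal axis) against R-SDS 2 minus Control 2 (vertical axis), with 1 point per gene, the 29 liver-type genes in colour by role and all other genes in grey. Alb (-1.78 and -1.62) and Serpina1c (-1.96 and -2.02) stand alone at lower left, and Ambp lies at upper right.

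The rows of these genes were dim. Signal depends on the probes as well as on the RNA, so a row's brightness is not a level that can be set against another gene's. When all genes were cut into 4 equal bins by mean signal, 19 of the 29 fell in the dimmest bin (below 4.97), 10 in the second and 0 in the brighter bins. In the dimmest bin 11 of the 19 had R-SDS arrays below the Control arrays, against 12.9% of all genes there, and the median difference was -0.26. In the second bin 4 of the 10 did (Alb, Apoa2, Apoc3 and Mup3), against 8.07% of all genes there, with a median of -0.14. A difference below -0.5 was rarer among brighter genes in general. It was found for 40 genes of the dimmest bin (0.802%), 5 of the second (0.1%), 1 of the third (0.0201%) and 0 of the brightest. Alb and Mup3 were among those 5.

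**Figure D4:**
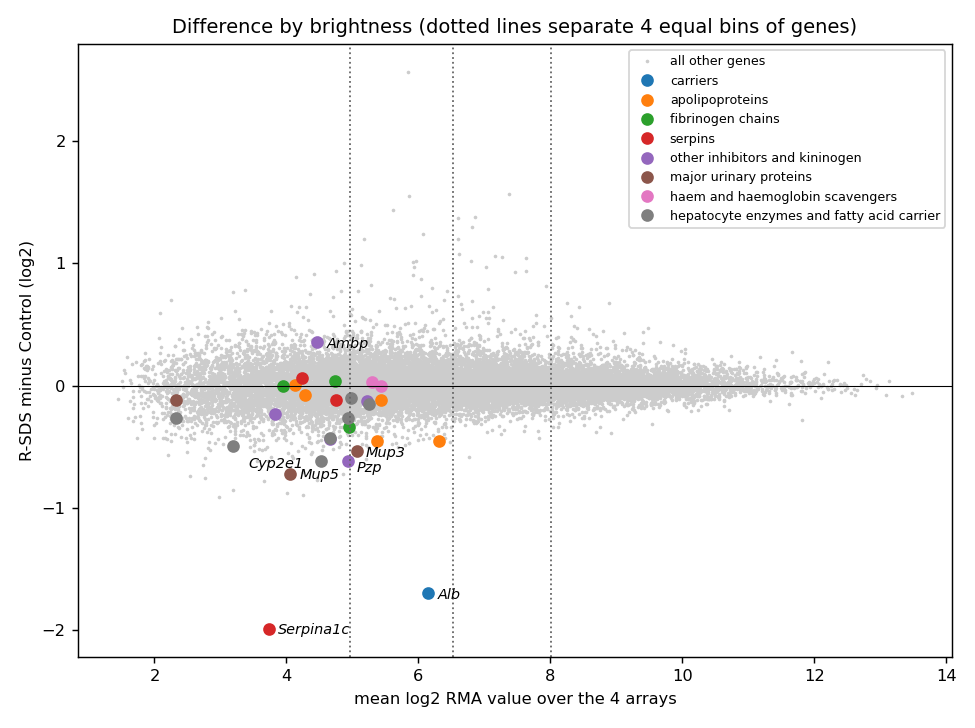
Mean log2 RMA value over the 4 arrays (horizontal axis) against the log2 difference R-SDS minus Control (vertical axis), with 1 point per gene, the 29 liver-type genes in colour by role and all other genes in grey. Dotted lines separate 4 equal bins of all genes by signal, and 19 of the 29 lie left of the first line, at 4.97, and 10 between the first and the second.

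Further genes of the liver were counted in the same way. Of 59 further measured genes for plasma proteins made by liver, 33 had a lower mean in R-SDS mice (46.5% of all genes did), and the median difference was -0.01. The R-SDS arrays lay below the Control arrays in 5 of them (8.81% of all genes) and above in 5 (9.52%). The largest differences of that list were higher in R-SDS mice, for Ttr (1.60, SE 1.70), F5 (1.01, SE 0.71) and Pon1 (0.55, SE 0.41). F5 and Pon1 were high in R-SDS 1 but not in R-SDS 2. The list shares 2 genes with the choroid plexus markers, and without them the median of 57 genes was -0.01. Ces1c, a plasma carboxylesterase, had the largest lower value of the list. It measured 3.23 and 3.32 in R-SDS 1 and R-SDS 2, against 3.77 and 3.74 in Control 1 and Control 2 (difference -0.48). Of 55 further enzymes and transporters of the hepatocyte, 27 had a lower mean, 7 had R-SDS arrays below the Control arrays and 8 above, and the median was 0.01. Cyp2a12, a steroid-hydroxylating P450, measured 3.42 and 3.31 in R-SDS mice and 4.05 and 3.72 in Control mice (difference -0.52). Tdo2, which degrades tryptophan and is also expressed in dentate granule neurons, measured 5.23 and 5.27 in R-SDS mice and 4.98 and 4.74 in Control mice (difference 0.39). Of 16 transcription factors of liver, 7 had a lower mean, with a median of 0.02, and Hnf4a, which regulates many of the genes described, had a difference of 0.03. These lists, too, were written with results of these data known, and no difference between lists was tested.

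Acute-phase genes are induced by liver in inflammation. Of 19 measured, 6 had a lower mean in R-SDS mice, and the median was 0.09. Lcn2, which encodes lipocalin 2, measured 7.80 and 6.47 in R-SDS mice and 4.57 and 4.56 in Control mice (difference 2.57), while Hamp, which encodes the iron hormone hepcidin, overlapped (difference -0.39).

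Genes beside the liver-type genes on the chromosomes were counted too. Among 80 measured genes that lay next to a liver-type gene or 1 gene further, 30 had a lower mean in R-SDS mice, 6 had R-SDS arrays below the Control arrays (8.81% of all genes), and the median difference was 0.04. Afp, the fetal relative of albumin that follows Alb in RefSeq's order, measured 4.89 and 5.15 in R-SDS 1 and R-SDS 2, against 5.08 and 5.38 in Control 1 and Control 2. The Afp arrays overlapped, and the difference was -0.21.

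Markers of other cells were read on the same arrays. In 18 of 18 choroid plexus genes the R-SDS mean was higher, with a median difference of 1.05. Their median level reached 8.21 in R-SDS 1 but 5.54 in R-SDS 2, against 5.54 and 5.47 in Control 1 and Control 2. The median difference was 2.13 within number 1 and 0.01 within number 2. Single genes of the list departed from these medians. Ttr, which encodes transthyretin, measured 13.21 and 8.79 in R-SDS 1 and R-SDS 2, against 11.38 and 7.43 in Control 1 and Control 2, so that both number 1 arrays were the high ones and the R-SDS array was higher within both numbers. Of 11 markers of the endothelium and macrophages of liver sinusoids, 6 had a lower mean, with a median of -0.03 and levels of 5.17 and 5.11 in R-SDS mice and 5.13 and 5.39 in Control mice. Of 15 listed erythroid markers 6 were measured, and 1 of these had a lower mean, with a median of 0.21. The median difference of the erythroid markers was 0.17 within number 1 and -0.01 within number 2. Among them Alas2 measured 7.41 and 5.80 in R-SDS 1 and R-SDS 2, against 5.66 and 5.94 in Control 1 and Control 2. Of 14 markers of leukocytes and platelets 3 had a lower mean, with medians of 0.39 within number 1 and -0.08 within number 2. Of 11 markers of meningeal and vascular fibroblasts 0 had a lower mean, with medians of 0.32 and -0.12. RMA values have no 0, so none of these markers could be called absent. The part of other cell types in the values of the liver-type genes was not tested.

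**Figure D5:**
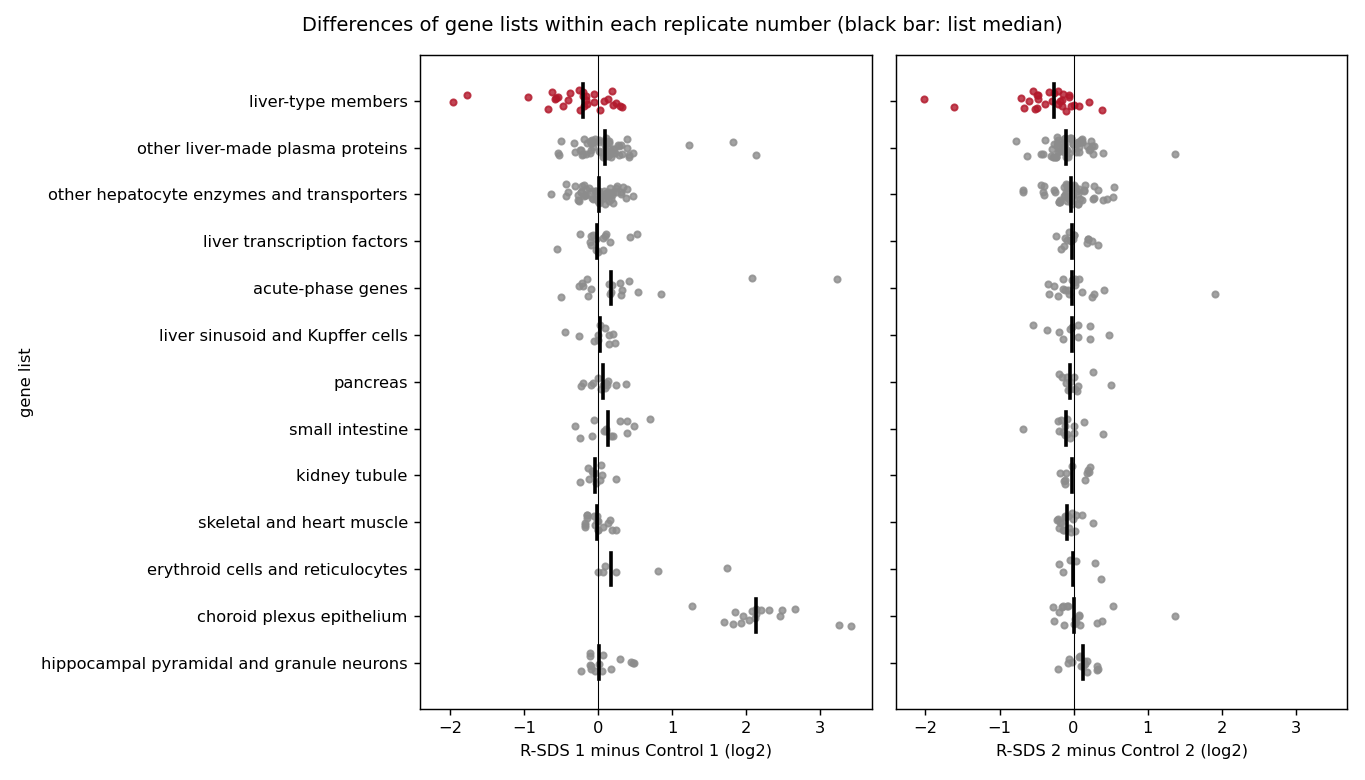
Log2 difference within number 1 (left, R-SDS 1 minus Control 1) and within number 2 (right, R-SDS 2 minus Control 2) for the genes of each list (vertical axis), with 1 point per gene and a black bar at the median of the list. The liver-type genes have medians of -0.20 and -0.26, and the choroid plexus genes have medians of 2.13 and 0.01.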

How the data were processed

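Gene expression was measured on Affymetrix whole-transcript arrays of mouse genes in 4 hippocampal RNA samples. The deposited values are on a log2 scale. Per the labels, the authors used Affymetrix Expression Console and its RMA method, which corrects background, normalises arrays and summarises the probes of each row. The build of the array annotation and the grouping of arrays for normalisation are not given in the sources used here. There is no detection call, and precision is limited by the small number of arrays.

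Of 35556 rows, 21789 had 1 gene symbol (19938 genes), 1621 had several and 12146 were not listed. Of the Entrez identifiers, 99.6% matched RefSeq. Differences between R-SDS and Control were tested by limma 3.58.1 (lmFit, eBayes) in R 4.3.3 on all rows with 1 symbol, two-sided, with Benjamini-Hochberg adjustment (threshold 0.05). It had 2 residual and 4.07 prior degrees of freedom. The study's methods state that 2 mice were analysed for R-SDS, and the labels do not say whether the samples of a group were separate animals. Hence p-values and SEs concern the spread between these samples. For each row limma moderates that spread with the spread of all tested rows, so an SE does not rest on the row's own arrays alone. The procedure was tested on simulated data.

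The liver-type genes, the other lists and the tests were chosen with earlier results of these data known. All 32 listed genes were considered for naming. Of other lists, up to 4 genes with the largest absolute difference could be named. Camk2a, Hnf4a and Afp were named as a defining marker, as a regulator and as a chromosomal neighbour. Promoters were aligned with Biopython 1.88, and plots were drawn with matplotlib 3.10.9. Alternatives were a replicate block, further quantile normalisation, median centring, a filter on dim rows (below the 0.25 quantile), a floor at log2 5, a variance trend, the methods' t-test (Student, unpaired), the mean of all rows of a gene and leaving out each array. Comparison of protein sequences was not run.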

Additional observations from a re-analysis of the deposited data

How the results depend on the processing

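Of the 29 liver-type genes, 24 had a lower mean, 15 had both R-SDS arrays below both Control arrays (8.81% of all genes did) and 1 above (9.52%). With the p from limma 6 were lower at the study's thresholds (0.196% of all genes), and the median difference was -0.23. A filter on dim rows left 9 of the genes, of which 8 had a lower mean, 4 had R-SDS arrays below the Control arrays and 2 passed the thresholds. Over all rows it gave 110 at an unadjusted p under 0.05, with 6 lower and 21 higher at the thresholds of the study, against 221, 42 and 32 without it. With a floor at log2 5, which sets most of the genes to equal values, 13, 6 and 1 of the genes counted and the median was 0. Over all rows that floor gave 485, 1 and 3. Shares of all genes with a lower mean or without overlap were not counted under the filter or the floor. The 8.81% and 0.196% hold for the values as deposited and cannot be set beside the counts under these settings. A further quantile normalisation gave 383 at the unadjusted p, and the methods' t-test 440, with 13 lower and 6 higher. The liver-type genes were not counted with that t-test. In limma with a replicate block the counts were 1047 at the unadjusted p and 54 higher, while the 6 liver-type genes at the thresholds stayed 6 in number. The deviations of same-numbered arrays correlated at 0.517 over rows, and with 2 numbers this does not show that they pair the mice. Without single arrays 21 to 25 of the liver-type genes had a lower mean, with medians of -0.32 to -0.13. R-SDS lay below Control in 17 to 24 of them (24 without Control 1). The 8.81% of all genes holds for all arrays and cannot be set beside these counts. With an array left out fewer values are set against each other, and the share over all genes was not counted. Over all rows the unadjusted p then gave 227 to 843, the thresholds 67 to 323 lower and 74 to 416 higher, and the adjusted p 0 to 3 lower and 0 to 46 higher, with the highest counts without R-SDS 2. In 10 of the 29 genes the sign of the difference turned without some array, and in 19 it was kept without any array. Median centring, the variance trend and the mean of all rows kept the counts they gave within 1.5 times. Genes above the median signal could not be tried, since 0 of the 29 lie there. At the dim end of the scale a difference may understate or miss a change, or overstate it through spread between arrays. The median gap between arrays of a group was 0.19 (R-SDS) and 0.22 (Control) in the dimmest bin. In the brightest bin it was 0.16 and 0.14. No signal over background is known.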

Other observations

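Genes known from other organs were counted on the same arrays. Of 13 pancreas genes, 6 had a lower mean in R-SDS mice and the median difference was 0.02 (log2). For 14 genes of small intestine the count was 6 and the median 0.03, for 11 of kidney tubule 6 and -0.05, and for 18 of muscle 12 and -0.04. Fabp2, the intestinal relative of Fabp1, measured 3.02 and 3.37 in R-SDS 1 and R-SDS 2, against 3.33 and 4.06 in Control 1 and Control 2, so that its arrays overlapped (difference -0.50). Alpi, an intestinal alkaline phosphatase, measured 5.44 and 5.43 in R-SDS mice and 4.74 and 5.02 in Control mice (difference 0.55).

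Of 14 genes that glucocorticoids regulate in liver or brain, 3 had a lower mean in R-SDS mice, and the median difference was 0.15. Tat, which belongs to the liver-type genes and to these, had a difference of -0.15. Sgk1, a kinase of that list, measured 8.46 and 7.86 in R-SDS mice and 7.82 and 7.67 in Control mice (difference 0.41), with 0.63 in number 1 and 0.19 in number 2.

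The 17 genes below -0.5 within both replicate numbers included 5 liver-type genes. Of the 17, 15 lay in the dimmest bin of mean signal and 2 in the second bin, which were the liver-type genes Alb and Mup3. Several of the other 12 were olfactory or vomeronasal receptor genes. An example is Olfr988, with 2.39 and 2.66 in R-SDS mice and 3.10 and 3.77 in Control mice. Galr1, a galanin receptor, was also among the 12, with 4.05 and 4.19 in R-SDS mice and 4.57 and 4.76 in Control mice. Olfr988 and Galr1 were named after their values were seen.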
